A study of Gallus gallus with 20 samples.

Results

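ABC transporter genes encode membrane proteins that use the energy of ATP to move lipids, drugs, conjugates, peptides and metal-bound compounds across membranes. They were taken from a table of liver RNA counts of Ogye, a Korean native chicken breed, and Cornish, a meat breed, as every row whose symbol starts with ABC, a subfamily letter from A to G and a number. Of 32 such names, with 1 further name set aside by the rule, 30 had at least 10 counts in at least 5 libraries and form the set described here, out of 54062 entries in the table, 13956 of them named by a gene symbol. The names below the minimum were ABCA13, with 21 counts over all libraries, and ABCA4, with 112. All 30 members also passed the count filter of the test, which left 10697 named genes, and all 30 were found by symbol in the RefSeq gene table of the build GRCg7b. The 4 groups are Ogye at 5 weeks, Cornish at 5 weeks, Ogye at 10 weeks and Cornish at 10 weeks, each with 5 libraries of stranded total RNA from which ribosomal and globin RNA had been removed. The labels state no treatment, name replicates 1 to 5 within a group and do not say which bird or sex a library came from. The p-values therefore measure spread among libraries, which may be technical.

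In birds and mammals the family is divided by sequence into subfamilies A to G. Roles given below are those known from human and mouse proteins, as background. Liver cells use members on the face towards bile and on the face towards blood to export sterols, drugs and conjugates, and members inside the cell to bring fatty acids into peroxisomes, to move vitamins and peptides at lysosomes and to serve haem and iron-sulphur synthesis in mitochondria. Proteins of subfamilies E and F have the ATP-binding parts without membrane spans and act on ribosomes.

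Libraries held 14865637 to 31848768 counts, of which 9625549 to 21106844 fell on named genes. Levels are CPM, counts per 1000000 counts of named genes after TMM scaling. They serve to compare 1 gene between libraries, since no transcript lengths were at hand to compare genes with each other. Changes are log2 fold changes ± standard error, and adjusted p is that of edgeR's quasi-likelihood test with Benjamini-Hochberg adjustment over all 10697 genes, called under 0.05. The 8 hepatocyte markers listed for the tissue, such as albumin and transthyretin, were present in every group with summed levels of 132000 to 376000 CPM. They also moved with the groups. With age 4 of 8 were higher and 0 lower in Cornish, and 4 higher and 3 lower in Ogye. Between breeds 2 were higher and 4 lower in Cornish at 10 weeks, and 0 higher and 1 lower at 5 weeks. Markers of heterophils, the avian counterpart of neutrophils, moved with the groups, with 7 of 8 lower in Cornish at 10 weeks and 8 of 8 higher with age in Ogye. Their summed levels were 77 to 219 CPM in Ogye and 163 to 476 CPM in Cornish at 5 weeks, and 478 to 1170 CPM and 33.1 to 141 CPM at 10 weeks, none was at 0 in a group, and their part in the results was not tested. In bulk RNA, fewer cells of a type and less RNA per cell cannot be told apart. Replicates 3, 4 and 5 of Ogye at 5 weeks stood apart from the other 17 libraries on the first principal component, and in them levels relative to the median library fell with the genomic span of a gene (Spearman correlations across genes of -0.60, -0.61 and -0.60, where genes are not independent). Calls of members that use Ogye at 5 weeks, and counts over lists of partner genes, are therefore also given without these 3 libraries, which leaves 2. Counts of cell type markers are given with all libraries only. They stand beside the shares of all tested genes called that are given below.

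Counts on the 30 members made up from 0.0925% to 0.179% of all named counts in a library. Their summed level was 989.8 to 1765 CPM in Ogye at 5 weeks with a median of 1207 CPM, and 1087 to 1395 CPM in Cornish at 5 weeks with a median of 1326 CPM. At 10 weeks it was 1148 to 1443 CPM in Ogye, median 1395 CPM, and 1347 to 1733 CPM in Cornish, median 1627 CPM. Group ranges of the sum overlapped in each of the 4 comparisons. By single genes, 15 members were called in none of the 4 comparisons between groups, 9 in 1, 5 in 2 and 1, ABCD4, in 3.

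**Figure D1:**
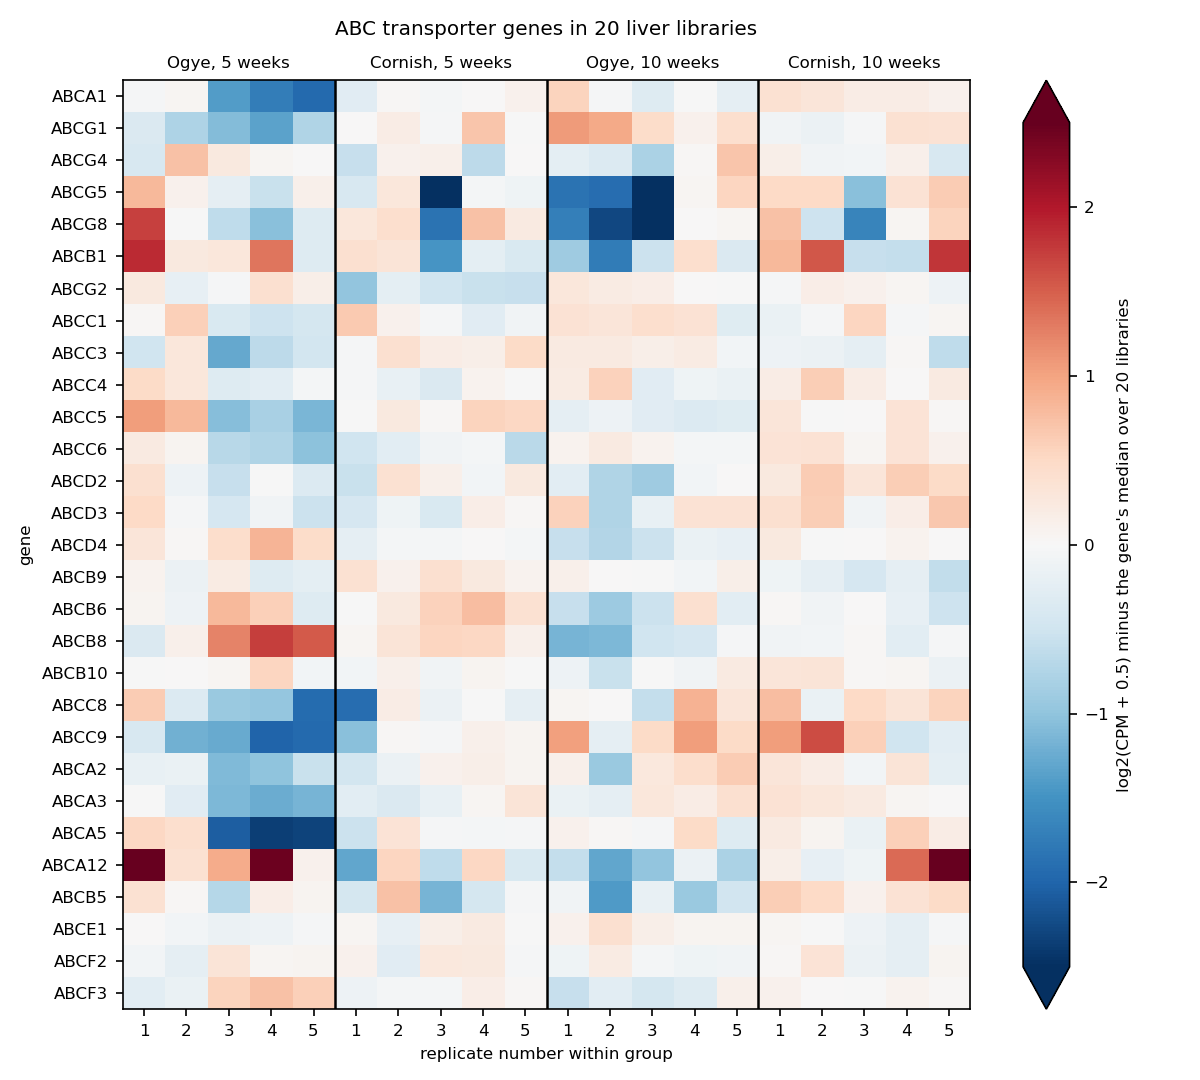
Level of 29 of the 30 ABC transporter genes (rows, ordered by role) in each of the 20 libraries (columns, 5 per group), as log2(CPM + 0.5) minus the median of the gene over all libraries. Replicates 3 to 5 of Ogye at 5 weeks are low for ABCA1, ABCA5 and ABCC5 and high for ABCB8 and ABCF3, while ABCG5 and ABCG8 are low in replicate 3 of Cornish and replicates 1 to 3 of Ogye at 10 weeks.

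The submitters' design note gives a divergence in weight between the breeds as the reason for the comparison, and no weights were used here. At 5 weeks 6 of 30 members were called between Cornish and Ogye, 3 higher and 3 lower in Cornish, beside 19.1% of all tested genes called, 6.75% higher and 12.3% lower. Those higher in Cornish were ABCG1, ABCC9 and ABCC3, and those lower were ABCG2, ABCD4 and ABCA12. At 10 weeks 2 of 30 were called, ABCD2 and ABCD4, both higher in Cornish, beside 7.65% of all genes called, 4.06% higher and 3.59% lower. From 5 to 10 weeks in Ogye 12 of 30 were called, 7 higher and 5 lower, beside 46.1% of all genes, 21.2% higher and 24.8% lower. In Cornish 2 of 30 were called, ABCG2 higher and ABCB9 lower at 10 weeks, beside 7.36% of all genes, 4.07% higher and 3.29% lower. The breed difference changed with age (interaction) for 9 of 30, 6 upwards and 3 downwards, beside 23.4% of all genes, 13.3% upwards and 10.1% downwards. The share of members called was thus near the share of all genes in each comparison. Median log2 fold changes of the members were 0.09, 0.19, 0.02, 0.21 and 0.17 in the same order, beside 0.00, -0.03, -0.00, -0.04 and -0.05 over all tested genes. Comparisons that use the same group share its libraries, so they are not independent of each other.

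Without replicates 3, 4 and 5 of Ogye at 5 weeks, 0 of 30 members were called between breeds at 5 weeks, beside 0.904% of all genes. In that fit 8 members had an unadjusted p under 0.05. The share of all genes under it was not counted, so the 8 cannot be read as a trait of the members. DESeq2 on all libraries called 7 members between breeds at 5 weeks, and the fit to the 2 compared groups alone called 0. Over all genes these fits called 2750 of 10697 and 56 of 10601. Without the 3 libraries 5 members were called at 10 weeks, 3 with age in Cornish and 6 in the interaction. The shares of all genes called there were 17.2%, 20.3% and 13.6%. For age in Ogye 4 members were called without the 3 libraries, beside 14% of all genes. ABCD4, ABCG1 and ABCA12 were among them, and ABCC5 joined them. The median span of the members was 30.2 kb, against 17.5 kb for all tested genes with a span, and single members ran from 5.48 kb to 225 kb. In the 3 libraries 13 members, with a median span of 39.9 kb, lay below both other libraries of the group, and 4 members, with a median span of 9.21 kb, lay above both. The 4 were ABCB8, ABCD4, ABCF2 and ABCF3. The 3 libraries had been set apart by levels over all tested genes, and the same count was not made over all genes. These counts therefore cannot be read as a trait of the members.

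**Figure D2:**
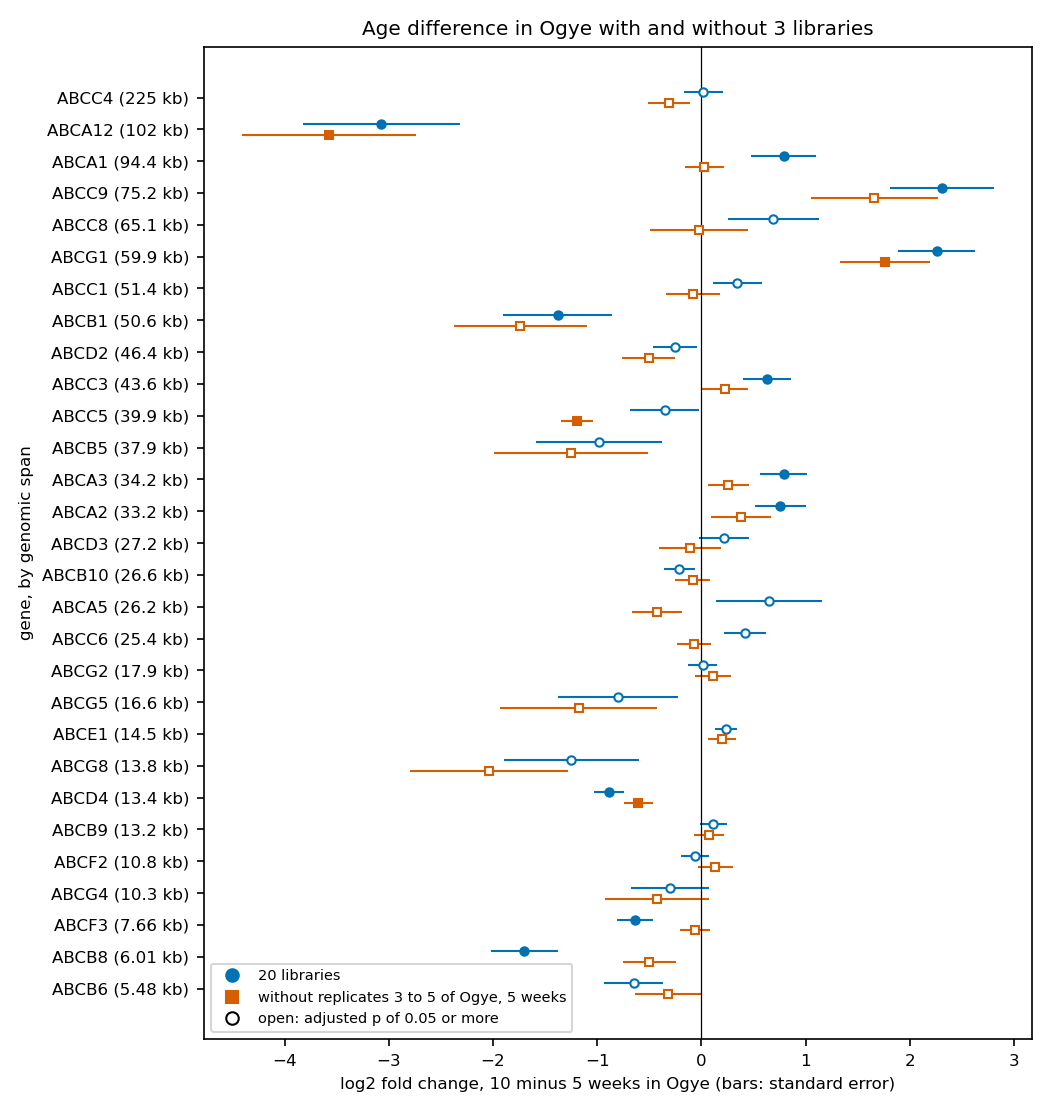
Log2 fold change from 5 to 10 weeks in Ogye (horizontal axis, bars are standard errors) for 29 of the 30 members ordered by genomic span, from all 20 libraries (circles) and without replicates 3 to 5 of Ogye at 5 weeks (squares), filled where the adjusted p was under 0.05. ABCB8 moved from -1.70 to -0.50 and ABCA1 from 0.79 to 0.03, while ABCD4, ABCG1 and ABCA12 were called in both fits.

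The member with most calls was ABCD4 (chromosome 5, 37362511 to 37375919), which exports cobalamin, vitamin B12, from lysosomes. At 5 weeks it stood at 43.4, 35.9, 48.2, 64.2 and 48.4 CPM in replicates 1 to 5 of Ogye and at 30.1, 33.9, 34.01, 35.7 and 34.05 CPM in those of Cornish. At 10 weeks it stood at 23.4, 20.9, 24, 31.2 and 30.4 CPM in Ogye and 42.1, 34.9, 35.6, 37.7 and 35.6 CPM in Cornish. Every Ogye library was above every Cornish library at 5 weeks and below every Cornish library at 10 weeks, so the order of the breeds turned over. ABCD4 shares part of its span with ACSS1B and the microRNA gene MIR6598 in RefSeq, and without the strand setting of the counting their reads cannot be told apart. The gap at 5 weeks was narrow, 35.9 CPM in the lowest Ogye library against 35.7 CPM in the highest Cornish library. ABCD4 was lower in Cornish at 5 weeks (log2 change -0.52 ± 0.14, adjusted p = 0.019) and higher at 10 weeks (log2 change 0.52 ± 0.14, adjusted p = 0.03). It fell with age in Ogye (log2 change -0.89 ± 0.14, adjusted p = 0.00016), and its interaction was 1.03 ± 0.20 (adjusted p = 0.0019). In Cornish the change with age was 0.15 ± 0.14 (adjusted p = 0.55). The age call in Ogye and the interaction passed in all alternatives run (adjusted p 1.6e-07 to 0.011 over its 30 alternatives, adjusted p 1.1e-05 to 0.012 over its 29 alternatives). Without the 3 libraries the 5-week difference was -0.24 ± 0.14, adjusted p = 0.5 (adjusted p 0.00047 to 0.5 over its 30 alternatives), a call also lost without replicate 4 of Ogye at 5 weeks (-0.39, adjusted p = 0.068). The 10-week call was lost in 7 of 30 alternatives, each leaving out 1 library (adjusted p 0.0011 to 0.09 over its 30 alternatives). The libraries were replicates 1, 2 and 3 in Ogye and 1, 2, 4 and 5 in Cornish, all of 10 weeks.

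Other genes that handle cobalamin did not all follow ABCD4. MMADHC, which directs cobalamin to its enzymes, stood at 118, 104, 87.97, 109 and 114 CPM in Ogye and 66.3, 85.95, 69.6, 77.5 and 69.6 CPM in Cornish at 5 weeks, with no overlap. At 10 weeks it stood at 112, 103, 91.3, 80.4 and 87.2 CPM in Ogye and 97.8, 107, 119, 109.9 and 105 CPM in Cornish, where the groups overlapped. MMADHC was lower in Cornish at 5 weeks (log2 change -0.53 ± 0.12, adjusted p = 0.0096), rose with age in Cornish (log2 change 0.55 ± 0.12, adjusted p = 0.011) and had an interaction of 0.72 ± 0.17 (adjusted p = 0.0062). Its 5-week difference without the 3 libraries was -0.59, adjusted p = 0.0542. LMBRD1, the lysosomal partner of ABCD4, and MMACHC, which processes cobalamin, were called in no comparison, with interactions of 0.09 ± 0.25 and -0.51 ± 0.29.

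**Figure D3:**
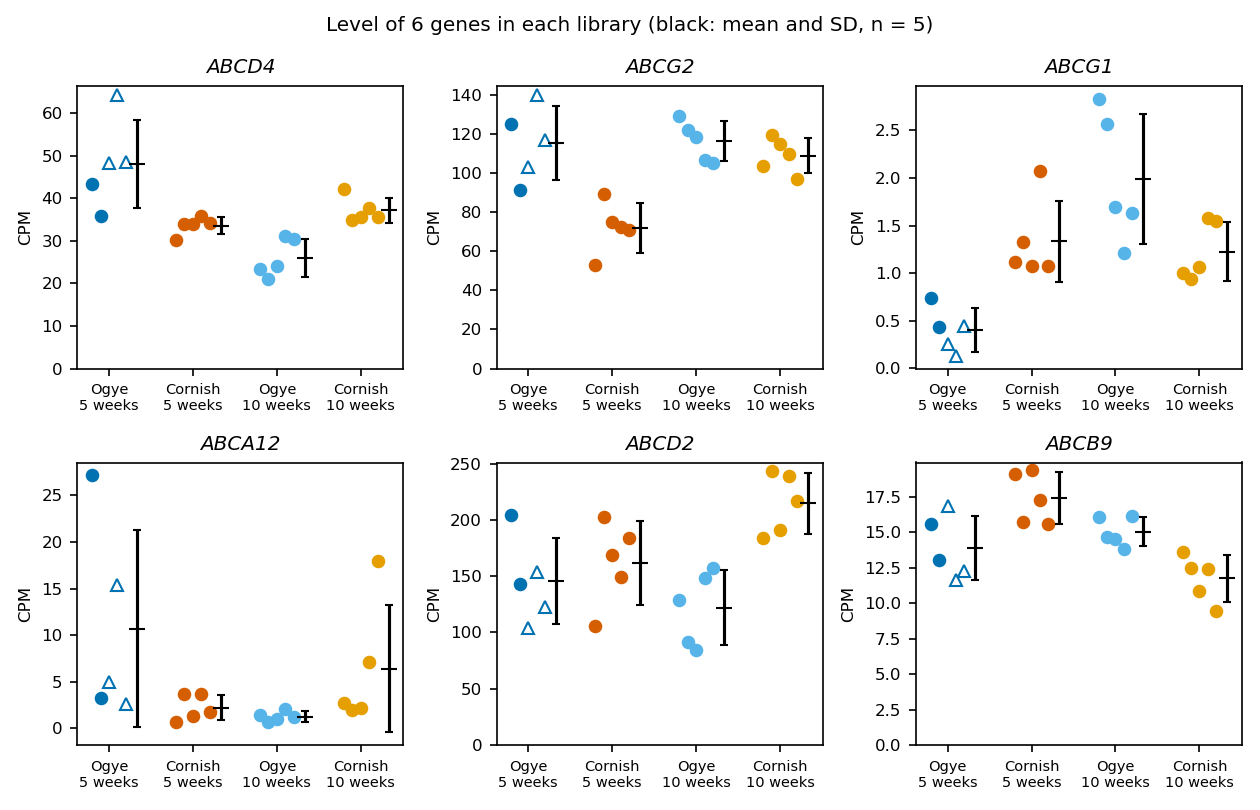
Level in CPM (vertical axes, linear) of ABCD4, ABCG2, ABCG1, ABCA12, ABCD2 and ABCB9 in each library by group (horizontal axis), with the mean and SD of 5 libraries in black and open triangles for replicates 3 to 5 of Ogye at 5 weeks. ABCD4 is higher in Ogye at 5 weeks and higher in Cornish at 10 weeks, and ABCG2 is lowest in Cornish at 5 weeks, where all libraries are below 91.4 CPM.

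ABCD2 and ABCD3 carry fatty acids into peroxisomes. ABCD2 (chromosome 1, 15466496 to 15512932), a carrier of very long-chain fatty acyl groups, stood at 128, 91.9, 84.05, 149 and 157 CPM in Ogye and 184, 243, 191, 239 and 216 CPM in Cornish at 10 weeks. All Cornish libraries were above all Ogye libraries, and replicates 2 and 3 of Ogye were the lowest. The difference was called (log2 change 0.82 ± 0.21, adjusted p = 0.023). It was lost when replicate 2 or 3 in Ogye, or 2 or 4 in Cornish, was left out (adjusted p 0.0012 to 0.07 over its 30 alternatives). At 5 weeks the breeds overlapped, with 104 to 205 CPM in Ogye and 105 to 203 CPM in Cornish (log2 change 0.15 ± 0.21, adjusted p = 0.61), and the interaction was 0.66 ± 0.30 (adjusted p = 0.11). ABCD3 (chromosome 8, 13282647 to 13309798), which takes in branched-chain fatty acids and bile acid precursors, was called in no comparison. It stood at 324, 223, 171, 215 and 158 CPM in Ogye and 171, 212, 176, 256 and 235 CPM in Cornish at 5 weeks. Levels of 10 weeks were 341, 135, 202, 293 and 295 CPM in Ogye and 304, 351, 215, 255 and 366 CPM in Cornish. Groups overlapped in all 4 comparisons, and the highest log2 fold change was that of age in Cornish (0.51 ± 0.24, adjusted p = 0.19).

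The 19 genes listed beside these carriers were peroxisome genes together with the cobalamin genes LMBRD1, MMACHC and MMADHC. Of the 19, 2 were higher and 0 lower in Cornish at 10 weeks, beside 4.06% and 3.59% of all tested genes. The median log2 fold change of the 19 was 0.29, against -0.03 over all tested genes. Beside 17.2% of all genes called in the fit without the 3 libraries, 7 of the 19 were higher and 0 lower, at a median of 0.29. SLC27A4, a fatty acid importer, was among them (log2 change 1.11 ± 0.21, adjusted p = 0.0052). With age in Cornish 4 of 19 rose and 0 fell, beside 4.07% and 3.29% of all tested genes. MMADHC was among those that rose, as was PHYH, which oxidises phytanic acid (log2 change 1.19 ± 0.19, adjusted p = 0.0016). In Ogye 2 rose and 3 fell, beside 46.1% of all tested genes called, and 1 and 1 without the 3 libraries, beside 14%. At 5 weeks 1 was higher and 1, MMADHC, lower, beside 6.75% and 12.3% of all tested genes. Without the 3 libraries the counts were 0 and 0, beside 0.904% of all genes called, and edgeR gave a median of -0.10. The interaction was called upwards for 7 of 19, MMADHC among them, and downwards for 0, beside 13.3% and 10.1% of all tested genes. Without the 3 libraries it was called upwards for 3, beside 13.6% of all genes called in either direction.

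ABCB9 (chromosome 15, 5228907 to 5242153), a lysosomal peptide carrier, fell with age in Cornish. It stood at 19.1, 15.7, 19.4, 17.3 and 15.6 CPM at 5 weeks and 13.6, 12.5, 10.8, 12.4 and 9.42 CPM at 10 weeks, with no overlap (log2 change -0.57 ± 0.13, adjusted p = 0.014). In Ogye it stood at 11.6 to 16.9 CPM and 13.8 to 16.1 CPM (log2 change 0.12 ± 0.13, adjusted p = 0.48), and the interaction was -0.68 ± 0.18 (adjusted p = 0.012). Both calls passed in all alternatives run (adjusted p 0.0011 to 0.042 over its 30 alternatives, adjusted p 0.0038 to 0.027 over its 29 alternatives). Without the 3 libraries the 10-week difference between breeds was called as well (-0.36 ± 0.11, adjusted p = 0.035), against -0.36 ± 0.13, adjusted p = 0.1 with all libraries.

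Among exporters of sterols, ABCG1 (chromosome 1, 109397693 to 109457613), which passes cholesterol to high-density lipoprotein, was called in 2 of the 4 comparisons between groups, at low counts of 2 to 47 per library. It stood at 0.738, 0.434, 0.254, 0.132 and 0.446 CPM in Ogye and 1.12, 1.32, 1.07, 2.07 and 1.08 CPM in Cornish at 5 weeks. At 10 weeks it stood at 2.83, 2.57, 1.699, 1.21 and 1.63 CPM in Ogye and 0.999, 0.938, 1.06, 1.58 and 1.55 CPM in Cornish. Ogye at 5 weeks was below every other library of the series, and the breeds overlapped at 10 weeks. ABCG1 was higher in Cornish at 5 weeks (log2 change 1.69 ± 0.36, adjusted p = 0.0086), rose with age in Ogye (log2 change 2.26 ± 0.37, adjusted p = 0.00018) and had an interaction of -2.39 ± 0.50 (adjusted p = 0.0032). Without the 3 libraries the 5-week difference was 1.18 ± 0.42, adjusted p = 0.23 (adjusted p 0.00052 to 0.23 over its 30 alternatives), the age change 1.76 ± 0.43, adjusted p = 0.014 (adjusted p 2.1e-07 to 0.014 over its 30 alternatives) and the interaction -1.89 ± 0.52, adjusted p = 0.024 (adjusted p 0.00012 to 0.038 over its 29 alternatives). ABCG1 is also a gene of macrophages, and 5 of 7 tested macrophage markers were lower in Cornish at 5 weeks, beside 12.3% of all tested genes. Summed levels of the markers were 1400 to 2750 CPM in Ogye and 926 to 1270 CPM in Cornish. Over age in Ogye 5 of 7 were lower and 1 higher, beside 24.8% and 21.2% of all tested genes, with 933 to 1490 CPM at 10 weeks. In replicates 1 to 5 of Ogye at 5 weeks the sum was 1400, 1570, 1800, 1700 and 2750 CPM, so its highest values sat in the 3 libraries. No marker was at 0 in any group, and the part of macrophages in the result was not tested.

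ABCA1 (chromosome Z, 55410930 to 55505344), which loads cholesterol and phospholipid onto apolipoprotein A1, stood at 139, 147, 54.1, 42.5 and 36.5 CPM in Ogye and 116, 145, 138, 144 and 154 CPM in Cornish at 5 weeks. At 10 weeks it stood at 209, 139, 114, 141 and 122 CPM in Ogye and 186, 176, 163, 162 and 153 CPM in Cornish. Replicates 3 to 5 of Ogye at 5 weeks were the 3 lowest of the 20 libraries, while replicates 1 and 2 lay inside the range of Cornish. The age change in Ogye was called (log2 change 0.79 ± 0.31, adjusted p = 0.043) and was 0.03 ± 0.19, adjusted p = 0.94 without the 3 libraries (adjusted p 1.4e-06 to 0.94 over its 30 alternatives), so the call rested on them. It was also lost without any 1 of replicates 3, 4 and 5 of Ogye at 5 weeks and in 19 of 30 alternatives in all, 14 of them without 1 library. ABCA1 lies on the Z chromosome, and HINTW, a gene of the W chromosome, was at 0 counts in replicate 3 of Ogye at 5 weeks and at 3 to 25.9 CPM in the other 19 libraries. ABCA1 was low in that library and in replicates 4 and 5, where HINTW was highest, at 25.9 and 17.3 CPM. The relation of the 2 genes was not tested. The breed differences of ABCA1 were 0.73 ± 0.31 at 5 weeks (adjusted p = 0.095) and 0.21 ± 0.31 at 10 weeks (adjusted p = 0.75).

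ABCG5 (chromosome 3, 24907881 to 24924515) and ABCG8 (chromosome 3, 24924615 to 24938401) are neighbours, 99 bases apart, and their proteins pair to export plant sterols and cholesterol into bile. ABCG5 stood at 41.3, 25.3, 20.1, 15.7 and 25.5 CPM in Ogye and 17.6, 28.4, 2.49, 22.5 and 21.7 CPM in Cornish at 5 weeks. At 10 weeks it stood at 6.16, 5.92, 3.18, 24.3 and 34.03 CPM in Ogye and 33.3, 33.1, 11.1, 30.2 and 36.6 CPM in Cornish. The 5 lowest libraries were replicate 3 of Cornish at both ages and replicates 1, 2 and 3 of Ogye at 10 weeks. ABCG8 stood at 66.2, 19.7, 12.7, 9.32 and 15.8 CPM in Ogye and 24.2, 26.6, 5.17, 33.4 and 23.2 CPM in Cornish at 5 weeks. At 10 weeks the levels were 5.74, 3.69, 2.22, 20.1 and 20.6 CPM in Ogye and 33.6, 13.7, 5.95, 20.7 and 29.5 CPM in Cornish. The same 5 libraries were its lowest, and replicate 1 of Ogye at 5 weeks was its highest. Groups overlapped for both genes in all 4 comparisons. Neither gene was called in any. The standard errors were wide, as for the 10-week breed difference of 0.97 ± 0.58 for ABCG5 (adjusted p = 0.33) and 0.98 ± 0.65 for ABCG8 (adjusted p = 0.39). With group means removed, log2 levels of the pair went together over the 20 libraries (Pearson r = 0.916, permutation p = 1e-05, the smallest that 100000 permutations within groups can give, and Spearman rho = 0.923, permutation p = 3e-05, both 2-sided). No correlation was computed for any other pair of members. Whether this pair went together more than other genes did therefore cannot be told. Without the 2 libraries farthest from the median of ABCG5, replicate 3 of Cornish at 5 weeks and replicate 3 of Ogye at 10 weeks, r was 0.889. ABCG5 overlaps DYNC2LI1 on the chromosome, and the strand setting of the counting is not stated. DYNC2LI1 had means of 3.66 to 6.19 CPM over the 4 groups and was called in no comparison.

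**Figure D4:**
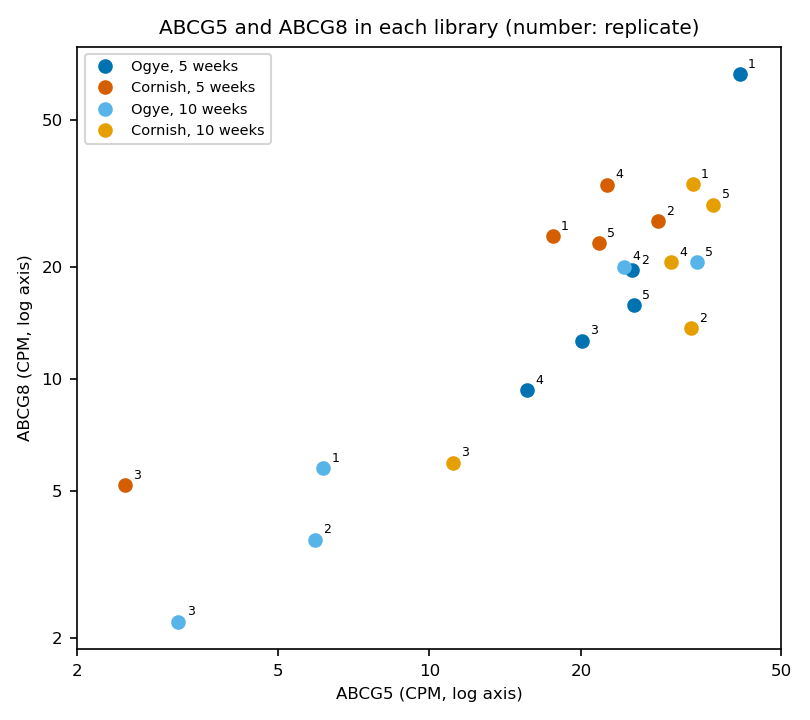
Level of ABCG8 (vertical axis) against ABCG5 (horizontal axis), both in CPM on log axes, with a point per library, coloured by group and numbered by replicate. Replicate 3 of Cornish at both ages and replicates 1 to 3 of Ogye at 10 weeks sit at the lower left, below 11.1 CPM or at it for ABCG5 and below 5.95 CPM or at it for ABCG8.

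ABCG4, a sterol carrier known from brain, was at 0.517 to 2.43 CPM over all libraries and was called in no comparison. Of 14 tested partners in sterol export and lipoprotein uptake, 2 were lower in Cornish at 5 weeks and 0 higher, beside 12.3% and 6.75% of all tested genes. At 10 weeks 3 were higher in Cornish and 0 lower, beside 4.06% and 3.59%. With age 2 rose and 6 fell in Ogye, and 2 rose and 0 fell in Cornish, beside 46.1% and 7.36% of all tested genes called. Medians were -0.14, 0.28, -0.53 and 0.05. SCARB1, the receptor that takes cholesterol from high-density lipoprotein, was lower in Cornish at 5 weeks (log2 change -0.72 ± 0.18, adjusted p = 0.014, and -0.70, adjusted p = 0.087 without the 3 libraries) and higher at 10 weeks (log2 change 0.83 ± 0.18, adjusted p = 0.011). Its levels were 28.3, 28.7, 20.2, 41.6 and 26.4 CPM in Ogye and 13.5, 19.7, 16.01, 17.2 and 21.6 CPM in Cornish at 5 weeks, which overlapped, and 15.1, 11.5, 18.2, 19.97 and 18.5 CPM and 35.4, 27.6, 28.7, 28.2 and 27.8 CPM at 10 weeks, which did not. The interaction of SCARB1 was 1.55 ± 0.25 (adjusted p = 0.00078) and 1.52, adjusted p = 0.00072 without the 3 libraries. LCAT, which esterifies cholesterol in high-density lipoprotein, was higher in Cornish at 10 weeks (log2 change 1.16 ± 0.29, adjusted p = 0.018). SOAT1, which esterifies it inside cells, was higher too (log2 change 0.93 ± 0.24, adjusted p = 0.025). APOB, the main protein of secreted lipoproteins, rose with age in Cornish (log2 change 0.71 ± 0.19, adjusted p = 0.031). In the fit of the other 17 libraries 0 of 14 were called at 5 weeks and 4 fell with age in Ogye, with 0 rising. Of all genes 0.904% and 14% were called in these 2 comparisons of that fit.

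Among exporters of drugs and conjugates, ABCG2 (chromosome 6, 18307033 to 18324885), which exports urate and many foreign compounds, was low in Cornish at 5 weeks. It stood at 125, 91.4, 103, 140.1 and 117 CPM in Ogye and 53.01, 89.1, 74.7, 72.2 and 70.6 CPM in Cornish at 5 weeks. Levels of 10 weeks were 129, 122, 119, 107 and 105 CPM in Ogye and 104, 119, 115, 109.6 and 96.98 CPM in Cornish. All Cornish libraries of 5 weeks were below all 15 other libraries. ABCG2 was lower in Cornish at 5 weeks (log2 change -0.68 ± 0.14, adjusted p = 0.0075) and rose with age in Cornish (log2 change 0.60 ± 0.14, adjusted p = 0.015). The change in Ogye was 0.01 ± 0.14 (adjusted p = 0.95) and the breed difference at 10 weeks -0.09 ± 0.14 (adjusted p = 0.75). The rise in Cornish passed in all alternatives (adjusted p 0.00038 to 0.042 over its 30 alternatives), and the 5-week call failed without the 3 libraries (-0.59 ± 0.17, adjusted p = 0.11) and with the compared groups alone (adjusted p 7.4e-05 to 0.11 over its 30 alternatives). The interaction (log2 change 0.59 ± 0.20, adjusted p = 0.037) was lost in 14 of 29 alternatives, among them without the 3 libraries (0.49 ± 0.21, adjusted p = 0.13) and without any 1 of 11 single libraries (adjusted p 0.0068 to 0.13 over its 29 alternatives). ABCG2 shares part of its span with a long non-coding RNA of RefSeq.

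ABCB1 (chromosome 2, 20620324 to 20670937) is the multidrug exporter P-glycoprotein. It stood at 121, 38.97, 40.2, 83.7 and 26.3 CPM in Ogye and 43.9, 41.4, 11.5, 27.9 and 25.1 CPM in Cornish at 5 weeks. At 10 weeks the levels were 17.6, 9.501, 22.7, 43.97 and 25.6 CPM in Ogye and 57.8, 98, 21.97, 21.5 and 115 CPM in Cornish. Each pair of groups overlapped. It fell with age in Ogye (log2 change -1.38 ± 0.52, adjusted p = 0.038), was not called in Cornish (log2 change 1.07 ± 0.52, adjusted p = 0.2) and had an interaction of 2.44 ± 0.73 (adjusted p = 0.022). The age call was lost in 10 of 30 alternatives, among them without replicate 1 or 4 of Ogye at 5 weeks, without replicate 1, 2, 3 or 5 of Ogye at 10 weeks and without the 3 libraries (-1.74 ± 0.64, adjusted p = 0.077, adjusted p 0.015 to 0.26 over its 30 alternatives). The interaction held without the 3 libraries (2.81 ± 0.82, adjusted p = 0.032) and was lost with limma-voom (1.78, adjusted p = 0.0506, adjusted p 0.0041 to 0.0506 over its 29 alternatives). A paralogue, ABCB1LA, lies 6571 bases from ABCB1 in RefSeq, and reads that the counting split between them cannot be told apart.

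Of the multidrug resistance proteins of subfamily C, ABCC3, which exports conjugates towards blood, was the one called. It stood at 4.77, 8.64, 2.602, 4.23 and 4.91 CPM in Ogye and 6.796, 9.38, 7.96, 7.76 and 9.97 CPM in Cornish at 5 weeks, with overlap, and at 8.24, 8.27, 7.83, 8.17 and 6.62 CPM and 6.38, 6.27, 5.88, 7.17 and 4.35 CPM at 10 weeks. ABCC3 was higher in Cornish at 5 weeks (log2 change 0.73 ± 0.23, adjusted p = 0.033), rose with age in Ogye (log2 change 0.63 ± 0.23, adjusted p = 0.031) and had an interaction of -1.11 ± 0.32 (adjusted p = 0.019). None of these calls stood without the 3 libraries (0.32 ± 0.22, adjusted p = 0.57, 0.23 ± 0.22, adjusted p = 0.53 and -0.70 ± 0.28, adjusted p = 0.11, in that order), with ranges of adjusted p 0.00013 to 0.57 over its 30 alternatives, adjusted p 0.0006 to 0.53 over its 30 alternatives and adjusted p 0.00011 to 0.21 over its 29 alternatives. The 5-week call was also lost when replicate 3, 4 or 5 in Ogye, or 2, 3, 4 or 5 in Cornish, was left out. The age call was lost when replicate 3, 4 or 5 in younger Ogye, or 1, 2, 3 or 4 in older Ogye, was left out.

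ABCC5 (chromosome 9, 15423689 to 15463608), an exporter of organic anions and cyclic nucleotides, was not called with all libraries, and its libraries of Ogye at 5 weeks lay in 2 levels. They stood at 135 and 114 CPM in replicates 1 and 2 and at 30.97, 36.9 and 29.3 CPM in replicates 3 to 5, on either side of the 51.03 to 59.5 CPM of Ogye at 10 weeks. Cornish stood at 64.2, 77.2, 66.7, 95.4 and 92.8 CPM at 5 weeks and 80.5, 64.2, 65.7, 82.2 and 66.8 CPM at 10 weeks. The age change in Ogye was -0.35 ± 0.33, adjusted p = 0.4 with all libraries and -1.19 ± 0.16, adjusted p = 0.00039 without the 3, and the interaction 0.21 ± 0.47, adjusted p = 0.76 and 1.05 ± 0.20, adjusted p = 0.0033. At 10 weeks all Cornish libraries were above all Ogye libraries, with a log2 change of 0.40 ± 0.33, adjusted p = 0.51 and, without the 3 libraries, 0.40 ± 0.12, adjusted p = 0.037.

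ABCC1 and ABCC4, exporters of conjugates and of cyclic nucleotides, were called in no comparison, with ranges over all libraries of 6.61 to 15.6 CPM and 11.6 to 23.2 CPM. ABCC6, through which liver cells release ATP and which limits mineral deposits elsewhere in the body, was at 65.05 to 154 CPM in Ogye and 83.03 to 128 CPM in Cornish at 5 weeks, and at 128 to 156 CPM and 136 to 170 CPM at 10 weeks. Its age change in Cornish was 0.54 ± 0.20, adjusted p = 0.097 with all libraries and 0.54 ± 0.12, adjusted p = 0.0079 without the 3 Ogye libraries. All Cornish libraries of 10 weeks stood above all those of 5 weeks. ABCC1 (chromosome 14, 7648833 to 7700212) and ABCC6 (chromosome 14, 7702655 to 7728103) lie close to each other.

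Enzymes that make the conjugates were listed beside these exporters. Of 16 tested genes of glutathione and conjugation 6 were lower in Cornish at 5 weeks and 0 higher, beside 12.3% and 6.75% of all tested genes. At 10 weeks 5 were higher in Cornish and 0 lower, beside 4.06% and 3.59%. The medians of the 16 were -0.36 and 0.42. With age 3 rose in Cornish and 0 fell, and 1 rose and 7 fell in Ogye, beside 7.36% and 46.1% of all tested genes called. SULT1B1, a sulphotransferase, was lower in Cornish at 5 weeks (log2 change -3.70 ± 0.39, adjusted p = 4.5e-05, and -3.32, adjusted p = 0.0024 without the 3 libraries) and higher at 10 weeks (log2 change 2.46 ± 0.37, adjusted p = 0.0012), with an interaction of 6.16 ± 0.53 (adjusted p = 1.2e-06, and 5.1e-05 without the 3 libraries). UGT1A1, which joins bilirubin to glucuronic acid, was higher in Cornish at 10 weeks (log2 change 1.87 ± 0.34, adjusted p = 0.004). GCLC, the rate-limiting enzyme of glutathione synthesis, was higher in Cornish at 10 weeks (log2 change 1.45 ± 0.23, adjusted p = 0.0014) and fell with age in Ogye (log2 change -0.85 ± 0.22, adjusted p = 0.0048, and -1.01, adjusted p = 0.026 without the 3 libraries). MGST1, a membrane-bound glutathione transferase, rose with age in Cornish (log2 change 0.68 ± 0.16, adjusted p = 0.017). With the 3 libraries left out 1 of 16 was lower at 5 weeks and 0 higher, with a median of -0.02, beside 0.904% of all genes called. With age in Ogye 1 rose and 2 fell in that fit, beside 14% of all genes called.

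The next list held 14 tested genes of organic anion uptake, the canalicular membrane and their regulators. In Cornish at 5 weeks 3 were lower and 0 higher, beside 12.3% and 6.75% of all tested genes. At 10 weeks 0 were called by edgeR, beside 7.65% of all tested genes, and 5 of the 14 had an unadjusted p under 0.05. The share of all genes under that unadjusted limit was not counted. Without the 3 libraries 2 were called higher at 10 weeks, beside 17.2% of all genes called. The 5-week count without the 3 libraries was 0 lower and 0 higher, beside 0.904% of all genes called. With age 3 rose and 6 fell in Ogye, beside 46.1% of all tested genes called, and 1 and 2 without the 3 libraries, beside 14%. SLCO1B1 and SLCO2B1, importers of organic anions, fell with age in Ogye (log2 change -1.10 ± 0.21, adjusted p = 0.00055, and log2 change -1.45 ± 0.32, adjusted p = 0.0017), with -1.11, adjusted p = 0.0082 and -1.31, adjusted p = 0.027 without the 3 libraries. Their interactions were 1.32 ± 0.29 and 1.95 ± 0.45 (adjusted p = 0.0045 and 0.0058), and 1.34 and 1.82 without the 3 libraries. SLCO1B3, a further importer, rose with age in Cornish (log2 change 0.72 ± 0.20, adjusted p = 0.033).

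Members of mitochondria include ABCB8, ABCB6 and ABCB10. ABCB8 (chromosome 2, 327279 to 333286), which takes part in mitochondrial iron export, stood at 8.46, 12.1, 26.8, 37.9 and 32.7 CPM in Ogye at 5 weeks and 4.66, 4.81, 7.68, 8.17 and 10.9 CPM at 10 weeks. ABCB8 shares part of its span with 2 other protein-coding genes of RefSeq, so its reads are uncertain in the same way. Replicates 3 to 5 of the younger group were the 3 highest of the 20 libraries. It fell with age in Ogye (log2 change -1.70 ± 0.33, adjusted p = 0.00057), with -0.50 ± 0.26, adjusted p = 0.2 without the 3 libraries (adjusted p 7e-07 to 0.2 over its 30 alternatives), and its interaction (log2 change 1.27 ± 0.45, adjusted p = 0.0467) was 0.07 ± 0.32, adjusted p = 0.9 without them (adjusted p 0.00021 to 0.9 over its 29 alternatives) and was lost without any 1 of 17 single libraries. ABCB6, linked to porphyrin transport, and ABCB10, which serves haem synthesis, were called in no comparison, with ranges over all libraries of 2.01 to 7.81 CPM and 11.9 to 25.8 CPM.

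A list of 21 genes covered haem and iron-sulphur synthesis, haem and iron transport, and haem breakdown. In Cornish at 5 weeks 2 of them, TMEM14C and HMOX1, were lower and 0 higher, beside 12.3% and 6.75% of all tested genes. At 10 weeks 1 was lower and 0 higher, beside 3.59% and 4.06%. With age 1 rose and 5 fell in Ogye, and 2 rose and 1 fell in Cornish, beside 46.1% and 7.36% of all tested genes called. HMOX1, which breaks down haem, rose with age in Cornish (log2 change 0.92 ± 0.21, adjusted p = 0.016), as did FLVCR1, a haem exporter (log2 change 1.12 ± 0.33, adjusted p = 0.0455). UROS, an enzyme of haem synthesis, fell with age in Cornish (log2 change -0.78 ± 0.21, adjusted p = 0.032) and was lower in Cornish at 10 weeks (log2 change -0.81 ± 0.22, adjusted p = 0.026). Over the other 17 libraries 0 of 21 were called at 5 weeks and 0 with age in Ogye, beside 0.904% and 14% of all genes. Medians of the 21 there were 0.06 and -0.05. With all libraries 12.3% of all tested genes were lower in Cornish at 5 weeks and 6.75% higher. Of 4 tested markers of erythroid cells, which make haem, 3 were lower in Cornish at 5 weeks and 0 higher. Their summed levels were 103, 145, 233, 252 and 268 CPM in replicates 1 to 5 of Ogye and 62.5 to 107 CPM in Cornish. The highest values were those of replicates 3 to 5 of Ogye. The marker list included globin genes, whose RNA had been removed from the libraries. None was at 0 in a group, and their part in the result was not tested.

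ABCC8 and ABCC9 are not pumps but regulatory subunits of potassium channels that sense ATP. ABCC9 (chromosome 1, 66924027 to 66999192) stood at 2.02, 0.955, 0.889, 0.3304 and 0.372 CPM in Ogye and 1.12, 2.899, 2.78, 3.13 and 2.997 CPM in Cornish at 5 weeks. Levels of 10 weeks were 6.33, 2.35, 4.14, 6.35 and 4.17 CPM in Ogye and 6.38, 9.81, 4.57, 1.86 and 2.28 CPM in Cornish. Ogye at 5 weeks was below all libraries of Ogye at 10 weeks. ABCC9 rose with age in Ogye (log2 change 2.31 ± 0.50, adjusted p = 0.0014), with 1.66 ± 0.61, adjusted p = 0.078 without the 3 libraries (adjusted p 1.8e-05 to 0.078 over its 30 alternatives). It was higher in Cornish at 5 weeks (log2 change 1.46 ± 0.49, adjusted p = 0.044), a call lost in 17 of 30 alternatives, among them without the 3 libraries (0.80 ± 0.59, adjusted p = 0.6, adjusted p 0.0073 to 0.6 over its 30 alternatives). It was also lost when 1 library was left out, namely replicate 3, 4 or 5 in Ogye or 2, 3, 4 or 5 in Cornish at 5 weeks, or replicate 1, 3, 4 or 5 in Ogye or 1 or 3 in Cornish at 10 weeks. Vessel wall cells use ABCC9. Over age in Ogye 5 of 9 endothelial markers and 4 of 9 stellate markers rose, with 0 and 1 falling. Over all tested genes 21.2% rose and 24.8% fell. Summed endothelial levels were 327 to 598 CPM at 5 weeks and 594 to 742 CPM at 10 weeks, stellate levels 381 to 528 CPM and 561 to 833 CPM. The endothelial sum was 598 and 594 CPM in replicates 1 and 2 of Ogye at 5 weeks and 378, 327 and 467 CPM in replicates 3 to 5, so its low values sat in the 3 libraries. The stellate sum was below the range of 10 weeks in all 5. No marker was at 0 in any group, and their part in the result was not tested. ABCC8 was called in no comparison, with a range of 1.56 to 13.7 CPM.

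Members of the family with other symbols were listed with their partners. CFTR, the chloride channel of bile duct cells, stood at 0.541, 0.304, 0.317, 0.793 and 0.0743 CPM in Ogye and 0.777, 1.19, 1.32, 1.63 and 1.08 CPM in Cornish at 5 weeks. At 10 weeks the levels were 1.17, 0.671, 1.403, 1.92 and 0.998 CPM in Ogye and 0.2304, 0.865, 0.626, 0.215 and 0.621 CPM in Cornish. It was higher in Cornish at 5 weeks (log2 change 1.54 ± 0.44, adjusted p = 0.024), rose with age in Ogye (log2 change 1.58 ± 0.45, adjusted p = 0.0087) and had an interaction of -2.80 ± 0.63 (adjusted p = 0.005). The interaction was also called without the 3 libraries (-2.76, adjusted p = 0.013). The difference at 5 weeks (1.5, adjusted p = 0.23) and the age change (1.54, adjusted p = 0.063) were not called there, at log2 changes close to those with all libraries. All its levels were under 2 CPM. At 5 weeks 6.75% of all tested genes were higher in Cornish and 12.3% lower. Of 6 bile duct markers 1 was higher in Cornish at 5 weeks, which was CFTR itself, and 1 was lower. Their summed levels were 84.5, 87.1, 121, 153 and 163 CPM in replicates 1 to 5 of Ogye and 61.6 to 102 CPM in Cornish. The highest values were those of replicates 3 to 5 of Ogye. No marker was at 0, and their part in the result was not tested. The peptide carriers TAP1 and TAP2 and their partner TAPBP, which load antigen peptides, fell with age in Ogye, with log2 fold changes of -1.51 ± 0.53, -1.89 ± 0.46 and -1.78 ± 0.43 (adjusted p = 0.024, 0.003 and 0.0027). These changes without the 3 libraries were 0.13, -0.36 and -0.10 (adjusted p = 0.9, 0.63 and 0.87).

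Lipid carriers of subfamily A other than ABCA1 included ABCA12 (chromosome 7, 4317477 to 4419568), which loads lipids into secretory granules of skin cells. It stood at 27.2, 3.25, 5.01, 15.4 and 2.602 CPM in Ogye and 0.6796, 3.67, 1.37, 3.66 and 1.73 CPM in Cornish at 5 weeks. Levels of 10 weeks were 1.42, 0.671, 0.9601, 2.12 and 1.18 CPM in Ogye and 2.69, 2.02, 2.19, 7.17 and 18.01 CPM in Cornish. High values sat in replicates 1 and 4 of Ogye at 5 weeks and in replicates 4 and 5 of Cornish at 10 weeks, and the 2 Ogye ages did not overlap. ABCA12 fell with age in Ogye (log2 change -3.07 ± 0.75, adjusted p = 0.0032) and had the widest interaction of the members (4.57 ± 1.02, adjusted p = 0.0046). Both calls passed in all alternatives (adjusted p 3.5e-05 to 0.036 over its 30 alternatives, adjusted p 2.9e-05 to 0.018 over its 29 alternatives), with -3.57 ± 0.84 and 5.07 ± 1.08 without the 3 libraries, and the interaction fell to 2.79 in the alternative where it was smallest. It was lower in Cornish at 5 weeks (log2 change -2.26 ± 0.69, adjusted p = 0.031), which was lost in 10 of 30 alternatives, among them that without the 3 libraries (-2.77 ± 0.79, adjusted p = 0.12, adjusted p 0.0054 to 0.12 over its 30 alternatives) and the fits that left out replicate 1 or 4 in Ogye, or 1, 3 or 5 in Cornish, at 5 weeks.

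ABCA2, which moves sterols in endosomes and lysosomes, rose with age in Ogye (log2 change 0.76 ± 0.24, adjusted p = 0.017). ABCA3, the lipid carrier of lung surfactant bodies, rose as well (log2 change 0.79 ± 0.22, adjusted p = 0.0078). Without the 3 libraries these changes were 0.38 ± 0.29, adjusted p = 0.4 and 0.26 ± 0.20, adjusted p = 0.41, with ranges of adjusted p 0.00026 to 0.4 over its 30 alternatives and adjusted p 6.6e-06 to 0.41 over its 30 alternatives. The call of ABCA2 was also lost without replicate 5 of Ogye at 10 weeks. ABCA5, a carrier of late endosomes, stood at 10.5, 9.72, 1.33, 0.991 and 1.04 CPM in Ogye at 5 weeks and 5.63 to 10.1 CPM at 10 weeks, and was called in no comparison (log2 change 0.65 ± 0.51, adjusted p = 0.3 for age in Ogye, and -0.42 ± 0.24, adjusted p = 0.25 without the 3 libraries). Its span is 26.2 kb, near the median of the members, and its 3 low values were below the 4.76 to 10.97 CPM of the other 17 libraries. ABCB5 was at 0 to 1.71 CPM and was called in no comparison. At 10 weeks all Cornish libraries, at 0.939 to 1.54 CPM, were above all Ogye libraries, at 0 to 0.749 CPM. The log2 change of ABCB5 there was 1.55 ± 0.60 (adjusted p = 0.12), and its interaction was 1.81 ± 0.81 (adjusted p = 0.11). Its count of 0 in replicate 2 of Ogye at 10 weeks allows up to 0.335 CPM, for counting error only.

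ABCE1 (chromosome 4, 30584531 to 30598983), which splits ribosomes after translation, was at 79.8 CPM or more in every library. It stood at 93.2, 89.1, 84.03, 85.04 and 91.4 CPM in Ogye and 95.9, 81, 103, 109 and 93.01 CPM in Cornish at 5 weeks. At 10 weeks the levels were 100.1, 123, 103, 98.2 and 97.6 CPM in Ogye and 96.9, 93.2, 84.95, 79.8 and 90.98 CPM in Cornish. No comparison was called, and its log2 fold changes, the interaction included, lay between -0.35 and 0.24, with standard errors up to 0.15. All Ogye libraries were above all Cornish libraries at 10 weeks (log2 change -0.23 ± 0.11, adjusted p = 0.21). The 2 ages of Ogye did not overlap either (log2 change 0.24 ± 0.11, adjusted p = 0.074). ABCF2, which binds ribosomes, was called in no comparison either. ABCF3, known from antiviral defence, fell with age in Ogye (log2 change -0.63 ± 0.17, adjusted p = 0.0065) and had an interaction of 0.68 ± 0.24 (adjusted p = 0.0499). Its 3 highest libraries were replicates 3 to 5 of Ogye at 5 weeks, at 64.2, 72.2 and 65.7 CPM against 36.1 and 38.8 CPM in replicates 1 and 2. Without them the changes were -0.06 ± 0.14, adjusted p = 0.81 (adjusted p 4.6e-06 to 0.81 over its 30 alternatives) and 0.11 ± 0.18, adjusted p = 0.72 (adjusted p 8.7e-05 to 0.72 over its 29 alternatives), and the interaction was lost without any 1 of 17 single libraries. Of 13 tested genes of ribosome recycling and its stress sensor, 1 was higher and 1 lower in Cornish at 5 weeks, beside 6.75% and 12.3% of all tested genes. By edgeR 0 were called at 10 weeks and 0 with age in Cornish. With age in Ogye 4 rose and 2 fell, beside 46.1% of all tested genes called. Without the 3 libraries 1 was higher and 0 lower at 5 weeks, beside 0.904% of all genes called. With age in Ogye 1 rose and 0 fell in that fit, beside 14% of all genes called. There DENR, which helps release ribosomal subunits, went from -1.09 ± 0.23 to -0.15 (adjusted p = 0.0011 and 0.45). Unadjusted p was under 0.05 for 3 and 3 of the 13 in the comparisons with 0 calls. The share of all genes under it was not counted in these comparisons. Without the 3 libraries 3 and 5 were called there, beside 17.2% and 20.3% of all genes. GCN1, which activates the sensor, rose with age in Ogye (log2 change 0.78 ± 0.13, adjusted p = 0.00025, and 0.51, adjusted p = 0.023 without the 3 libraries).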

How the data were processed

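RNA of 20 chicken liver libraries was counted. The authors deposited raw counts, made with FastQC, MultiQC, STAR and featureCounts on the build GRCg7b, per the submitters' processing notes. Versions and strand setting are not stated in those notes. Of 54062 entries 13956 are named by a gene symbol, 40097 are assembled transcripts and 9 have no gene name (0.013% to 0.059% of counts). Only named genes were tested in the main fit. Span and position are from RefSeq. Among the members 11 share part of their span with another RefSeq gene.

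Genes were filtered with filterByExpr, scaled by TMM and fitted in 1 model of 4 group means by robust quasi-likelihood in edgeR 4.0.16 (R 4.3.3), with 5 contrasts and 2-sided tests. The alternatives were DESeq2 1.42.0, voom with quality weights (limma 3.58.1), size factors by relative log expression, no filter, 1 CPM in 5 libraries, the replicate block, the compared groups alone, summed expression of 7 W-linked genes as a covariate, all entries, the 3 libraries left out, and each library in turn. Log2 deviations use CPM + 0.5. A 0 allows up to 3 counts. Members and lists were chosen with earlier results of these data known, so they are no independent evidence. Every called member is named, except 1 member that is in the counts and not reported by name here, and up to 3 called genes with the lowest adjusted p per list and contrast, fewer where space required. The LMBRD1, MMACHC and DYNC2LI1 values were added after their values were seen.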

Additional observations from a re-analysis of the deposited data

Results flagged for a closer look

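For 29 members the levels were screened in each group of 5 libraries for a library whose gap to its nearest neighbour exceeds 0.71 of the range of the group. Of 116 sets 11 passed. The limit is one that about 1 in 20 sets of independent normal values would pass. CPM levels need not be normal and the genes share libraries, so the count cannot be set against that share. Above their groups, in CPM, were ABCA1 in replicate 1 of Ogye at 10 weeks (209 against 115 to 141 in the others), ABCB10 in replicate 4 of Ogye at 5 weeks (25.8 against 17.0 to 18.3), ABCC1 in replicate 3 of Cornish at 10 weeks (14.4 against 8.60 to 10.1), ABCE1 and ABCF2 in replicate 2 of Ogye at 10 weeks (123 against 97.6 to 103, and 39.7 against 31.8 to 33.2), ABCG1 in replicate 4 of Cornish at 5 weeks (2.07 against 1.07 to 1.32) and ABCG8 in replicate 1 of Ogye at 5 weeks (66.2 against 9.32 to 19.7). Below their groups were ABCC1 and ABCC3 in replicate 5 of Ogye at 10 weeks (7.80 against 12.1 to 13.3, and 6.62 against 7.83 to 8.27), ABCC9 in replicate 1 of Cornish at 5 weeks (1.12 against 2.78 to 3.13) and ABCG5 in replicate 3 of Cornish at 10 weeks (11.1 against 30.2 to 36.6).

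The breed difference changed with age by the interaction test of edgeR for 9 members, with log2 values of 4.57 for ABCA12, 2.44 for ABCB1, 1.27 for ABCB8, 1.03 for ABCD4, 0.68 for ABCF3, 0.59 for ABCG2, -0.68 for ABCB9, -1.11 for ABCC3 and -2.39 for ABCG1. Those of ABCA12, ABCB1, ABCB9, ABCD4 and ABCG1 were also called without the 3 libraries, and those of ABCB8, ABCC3, ABCF3 and ABCG2 were not.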

How the results depend on the processing

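No member changed direction in any alternative for the calls listed above. The number of all genes called also moved between the fits named here, which tested 10195 to 10957 genes. For the breed difference at 5 weeks, 6 members were called, against 15 with limma-voom (11 higher and 4 lower), 2 with the W-linked covariate, 0 without the 3 Ogye libraries and 0 with the compared groups alone. Over all genes 2042 were called in the main fit, and 5994, 432, 99 and 56 in these alternatives, in that order. Leaving out 1 library gave 2 to 11: 11 without replicate 1 or 2 and 2 without replicate 4 of Ogye at 5 weeks, and 3 without replicate 3 or 5 of Cornish at 5 weeks. In these fits 3945, 3788, 686, 1196 and 1171 of all genes were called, in that order. At 10 weeks 2 members were called, against 4 with DESeq2, 4 with limma-voom, 5 without the 3 libraries and 5 with the compared groups alone. Over all genes 818 were called in the main fit, and 1242, 2292, 1882 and 1474 in these alternatives, in that order. Leaving out 1 library gave 0 to 3: 0 when replicate 2 or 3 in Ogye, or 2 or 4 in Cornish, was left out, and 1 when replicate 1 in Ogye, or 1 or 5 in Cornish, was left out, all of 10 weeks. The fits with 0 or 1 called 460 to 535 of all genes. For age in Ogye 12 were called, against 5 with the W-linked covariate, 4 without the 3 libraries and 7 with the compared groups alone, and 9 to 15 without 1 library. With limma-voom 18 were called, 13 higher and 5 lower. Over all genes 4931 were called in the main fit, 2811 with the covariate, 1531 without the 3 libraries and 3073 with the compared groups alone. The count was 6707 with limma-voom and 3949 to 5850 without 1 library. For age in Cornish 2 members were called, against 8 with limma-voom, 7 with the compared groups alone and 2 to 2 without 1 library. Over all genes 787 were called in the main fit, and 2862, 2330 and 379 to 1048 in these alternatives, in that order. For the interaction 9 members were called, against 16 with limma-voom (5 upwards and 11 downwards), 5 with the W-linked covariate and 6 to 12 without 1 library. Over all genes 2500 were called in the main fit, and 5772, 1155 and 1932 to 3599 in these alternatives, in that order. The cause of these changes was not tested. Leaving out libraries leaves fewer samples, and without the 3 libraries more genes were called at 10 weeks (1882 against 818). All groups share 1 model, so libraries of Ogye at 5 weeks also enter the estimate of spread for comparisons that do not use them. The interaction has no fit with the compared groups alone, since it uses all 4 groups.

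Same-numbered libraries did not deviate together, with correlations of -0.26 to 0.189 over the 4 comparisons, so the numbers were not taken as pairs. With the replicate number as a block 6, 2, 13, 2 and 8 members were called in the same order, beside 1910, 723, 4948, 652 and 2461 of all 10697 genes. The calls of ABCA12 at 5 weeks, ABCB1 with age in Ogye and ABCG2 in the interaction were lost with the block. In the first 4 comparisons 1, 1, 2 and 0 of 5 pairs correlated best with their own number. Relative log expression size factors shifted log2 changes by -0.0141 to 0.0139. Depth limits ABCA12, ABCB5, ABCC9, ABCG1 and ABCG4, with fewer than 10 counts in some libraries.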

Other observations

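Counts of ABCG8 were set against those of ABCG5 in the same library, a ratio in which library size cancels. It was 1.60, 0.777, 0.633, 0.595 and 0.621 in replicates 1 to 5 of Ogye at 5 weeks and 0.932, 0.623, 0.698, 0.826 and 0.605 at 10 weeks. In Cornish it was 1.38, 0.936, 2.08, 1.48 and 1.07 at 5 weeks and 1.01, 0.414, 0.534, 0.684 and 0.805 at 10 weeks. Replicate 3 of Cornish had the highest ratio of its group at 5 weeks and the second lowest at 10 weeks, while both of its levels were the lowest of the group at either age.

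Albumin took 4.09% and 4.86% of named counts in replicates 2 and 3 of Ogye at 10 weeks, against 11%, 19.1% and 14.9% in replicates 1, 4 and 5. Of these 5 libraries, replicates 1, 2 and 3 were the lowest for ABCG5 and ABCG8, and replicates 2 and 3 for ABCD2. The relation was not tested.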
